A study of Mus musculus with 12 samples.

Results

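SR proteins are splicing factors that carry a domain rich in arginine and serine, and the mRNA of 10 of their genes was described here in bone marrow hematopoietic stem cells (HSCs) without and with YTHDC1. The genes were *Srsf1*, *Srsf2*, *Srsf3*, *Srsf4*, *Srsf5*, *Srsf6*, *Srsf7*, *Srsf9*, *Srsf10* and *Srsf11*, found by symbol. They were chosen with earlier results of these data known. All 10 were found among the 55335 genes of the count table, and all 10 passed the filter on low counts with 18234 genes in all. HSCs were sorted from *Ythdc1*Δ/Δ mice, which were *Ythdc1* fl/fl Mx1-Cre mice given pIpC, and from *Ythdc1*+/+ mice, which were *Ythdc1*+/+ Mx1-Cre mice given pIpC. Mx1-Cre is a recombinase under an interferon-inducible promoter, so it acts in all cells that respond to interferon and not in HSCs alone, and pIpC induces interferon. Cre and pIpC were thus shared by the genotypes. The labels give the strain as C57B6, and the donor mice of the study's cell isolation were 8 weeks old. Polyadenylated RNA was sequenced in 12 libraries, which come in pairs under 6 sample numbers, *Ythdc1*Δ/Δ as KO176, KO177 and KO209 and *Ythdc1*+/+ as WT178, WT180 and WT207. The 2 libraries of a number were summed, giving 3 samples against 3. Whether each number stands for a separate mouse is not given in the labels, and the p-values therefore measure only the spread between these samples.

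SR proteins bind short enhancer motifs in exons through RNA recognition motifs and recruit the U1 snRNP and U2AF to the splice sites. Several of them also shuttle to the cytoplasm and hand mRNA to the export receptor NXF1. Their amount is tightly held in many cells, because SR proteins promote the inclusion of a "poison" exon with an early stop codon in their own or each other's transcripts, which are then destroyed by nonsense-mediated decay (NMD). YTHDC1 reads m6A in the nucleus, and in human cells it was found to bind SRSF3 and SRSF10 and to favor the binding of SRSF3 to RNA over that of SRSF10.

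The libraries held 22481622 to 24118972 counts in *Ythdc1*Δ/Δ, against 20809936 to 24563170 counts in *Ythdc1*+/+. *Ythdc1* mRNA was at 56.8, 69.6 and 69.6 CPM (counts relative to a sample's total, scaled by TMM factors) in *Ythdc1*Δ/Δ samples and at 76.0, 72.6 and 92.5 CPM in *Ythdc1*+/+ samples, with an adjusted p of 0.521 in edgeR's quasi-likelihood test. The count covers all exons of the gene, and the study's text does not name those deleted. Reads from exons left in place and reads from cells without the deletion cannot be told apart, so this is no check of the genotype. All 13 HSC markers were detected, and their summed level was 2425 to 2691 CPM in *Ythdc1*Δ/Δ against 2745 to 3084 CPM in *Ythdc1*+/+. Of the other marker lists, only the sums of cell division genes and of stroma and endothelium genes also did not meet between the genotypes. The summed level of 18 cell division genes was 2620 to 2928 CPM in *Ythdc1*Δ/Δ against 2101 to 2369 CPM in *Ythdc1*+/+, and that of 12 granulocyte genes was 13050 to 24690 CPM in *Ythdc1*Δ/Δ, with the highest value in KO176, against 11020 to 14260 CPM in *Ythdc1*+/+. Megakaryocyte genes summed to 176.1 to 303 CPM in *Ythdc1*Δ/Δ against 289 to 427 CPM in *Ythdc1*+/+. B cell genes were at 121 to 164 CPM in *Ythdc1*Δ/Δ against 124 to 137 CPM in *Ythdc1*+/+, and macrophage genes at 107 to 218 CPM in *Ythdc1*Δ/Δ against 89.5 to 129 CPM in *Ythdc1*+/+. Stroma and endothelium genes were at 136 to 140.0 CPM in *Ythdc1*Δ/Δ against 101 to 112 CPM in *Ythdc1*+/+. Erythroid genes were at 64.0 to 74.7 CPM in *Ythdc1*Δ/Δ against 53.7 to 81.4 CPM in *Ythdc1*+/+, and T and NK cell genes at 6.20 to 6.77 CPM in *Ythdc1*Δ/Δ against 5.68 to 7.64 CPM in *Ythdc1*+/+. By single genes, the log2 fold change was above 0 in 11 of 12 B cell genes (median 0.59), 12 of 12 granulocyte genes (median 0.43), 8 of 8 macrophage genes (median 0.65), 9 of 10 erythroid genes (median 0.29), 17 of 18 cell division genes (median 0.28) and 9 of 10 stroma and endothelium genes (median 0.89). It was below 0 in 11 of 13 HSC genes (median -0.34) and 7 of 7 megakaryocyte genes (median -0.72). Over all 18234 genes tested it was above 0 in 8918 and below 0 in 9316. Of the marker genes, 3 of stroma and endothelium passed the adjusted threshold of 0.05, as did 0.137% of all genes tested. An unadjusted p under 0.05 in the same direction was reached by 6 B cell, 2 granulocyte, 4 macrophage, 1 erythroid, 10 cell division, 5 stroma and endothelium, 5 HSC and 4 megakaryocyte genes. Over all genes tested that p was reached by 4.28% in the higher and 5.2% in the lower direction. No marker of these lists was at 0 in all samples. In bulk RNA a change in the cells present and a change in RNA per cell cannot be told apart, and the part of these markers in the SR gene values was not tested.

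The poison exons matter for what a gene count can show. The GENCODE vM21 annotation of the same build gives the same exon length for all 10 genes as the table, and it lists 85 transcripts for them, of which 15 in 9 genes are marked as NMD targets (none for *Srsf10*). The sequences below come from 4 exons that are absent from every protein coding transcript of their gene. Any reads from them would be counted together with reads from productive mRNA, and whether there were such reads was not measured. Further exons of this kind, in *Srsf4* and *Srsf11*, are not shown. Each sequence runs 5′ to 3′ on the transcript strand from the first base of the exon to the early stop codon, which stands in capitals. The *Srsf3* stretch lies at chr17:29039454-29039487 on the plus strand (mm10) and opens a 456-base exon of transcript Srsf3-201. The *Srsf7* stretch lies at chr17:80205054-80205081 on the minus strand in a 460-base exon of Srsf7-203. The *Srsf11* stretch lies at chr3:158024209-158024231 on the minus strand in a 109-base exon of Srsf11-206. The *Srsf9* stretch lies at chr5:115328347-115328428 on the plus strand in a 358-base exon of Srsf9-205.
Srsf3: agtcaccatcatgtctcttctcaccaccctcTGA
Srsf7: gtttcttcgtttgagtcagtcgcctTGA
Srsf11: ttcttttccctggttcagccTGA
Srsf9: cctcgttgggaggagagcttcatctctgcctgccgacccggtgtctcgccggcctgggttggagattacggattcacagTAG
Of the exon length counted for a gene, the share outside its protein coding transcripts was 66.9% for *Srsf3*, 60.6% for *Srsf11* and 58.5% for *Srsf5*. It was 36.6% for *Srsf4*, 32.3% for *Srsf2*, 27.4% for *Srsf7*, 24.9% for *Srsf9*, 23.2% for *Srsf6*, 16.6% for *Srsf10* and 2.66% for *Srsf1*. The table has 1 count per gene, so a level of productive mRNA cannot be separated from other transcripts of the gene. In 9 genes these include NMD targets. For *Srsf10*, 6 of its 10 transcripts were listed as processed transcripts, which are not protein coding.

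The 10 genes spanned a wide range of levels, and the order of their mean levels was the same in *Ythdc1*Δ/Δ and *Ythdc1*+/+. Levels between genes are given in TPM, a level per length computed from the counts and the exon length in the table. *Srsf7*, whose protein has a zinc knuckle beside its RNA recognition motif, was at 732 ± 25.8 TPM in *Ythdc1*Δ/Δ and 726 ± 119 TPM in *Ythdc1*+/+ (SD, n = 3 each, as for all values that follow). It held 32.8% of the summed TPM of the 10 genes in *Ythdc1*Δ/Δ and 32.6% in *Ythdc1*+/+. *Srsf2*, a factor of nuclear speckles that is recurrently mutated in human myelodysplastic syndromes, followed with 378 ± 17.3 TPM in *Ythdc1*Δ/Δ and 357 ± 20.8 TPM in *Ythdc1*+/+. *Srsf5* was at 290.1 ± 38.1 TPM in *Ythdc1*Δ/Δ and 345.5 ± 21.2 TPM in *Ythdc1*+/+, and its range over the 6 samples overlapped that of *Srsf2*. *Srsf6* was at 239 ± 1.56 TPM in *Ythdc1*Δ/Δ against 235.5 ± 6.23 TPM in *Ythdc1*+/+, and *Srsf3* at 214 ± 7.84 TPM in *Ythdc1*Δ/Δ against 189 ± 10.02 TPM in *Ythdc1*+/+. The other 5 genes were lower.

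*Srsf11* was at 107 ± 5.21 TPM in *Ythdc1*Δ/Δ and 119 ± 11.4 TPM in *Ythdc1*+/+. *Srsf9* was at 84.0 ± 15.6 TPM in *Ythdc1*Δ/Δ against 83.1 ± 3.06 TPM in *Ythdc1*+/+. *Srsf10* was at 80.3 ± 7.49 TPM in *Ythdc1*Δ/Δ against 69.15 ± 6.86 TPM in *Ythdc1*+/+, and *Srsf1* at 76.1 ± 11.3 TPM in *Ythdc1*Δ/Δ against 59.4 ± 6.89 TPM in *Ythdc1*+/+. The ranges of *Srsf9* and *Srsf10* and of *Srsf10* and *Srsf1* overlapped. *Srsf4* was lowest with 31.1 ± 1.07 TPM in *Ythdc1*Δ/Δ and 32.9 ± 0.441 TPM in *Ythdc1*+/+. All other neighbours in this order had ranges that did not meet. The summed TPM was 2231 ± 59.8 in *Ythdc1*Δ/Δ and 2217 ± 158 in *Ythdc1*+/+. Even *Srsf4* stood above 74.0% of the genes tested and *Srsf7* above 99.0% of them, against a median TPM of 7.41. The order rests on the length used. That length includes bases shared with exons of other genes, 43.0% of it for *Srsf4* and 25.3% for *Srsf2*. Read pairs touching exons of several genes were not counted, so these bases add length without counts and lower the TPM. What this does to the place of *Srsf4* and *Srsf2* in the order, and to the gaps to their neighbours, was not tested. With the length of protein coding transcripts alone, *Srsf5* and *Srsf3* stood after *Srsf7* and before *Srsf2*, and the share of *Srsf7* was 26.3% in *Ythdc1*Δ/Δ and 25.9% in *Ythdc1*+/+.

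**Figure D1:**
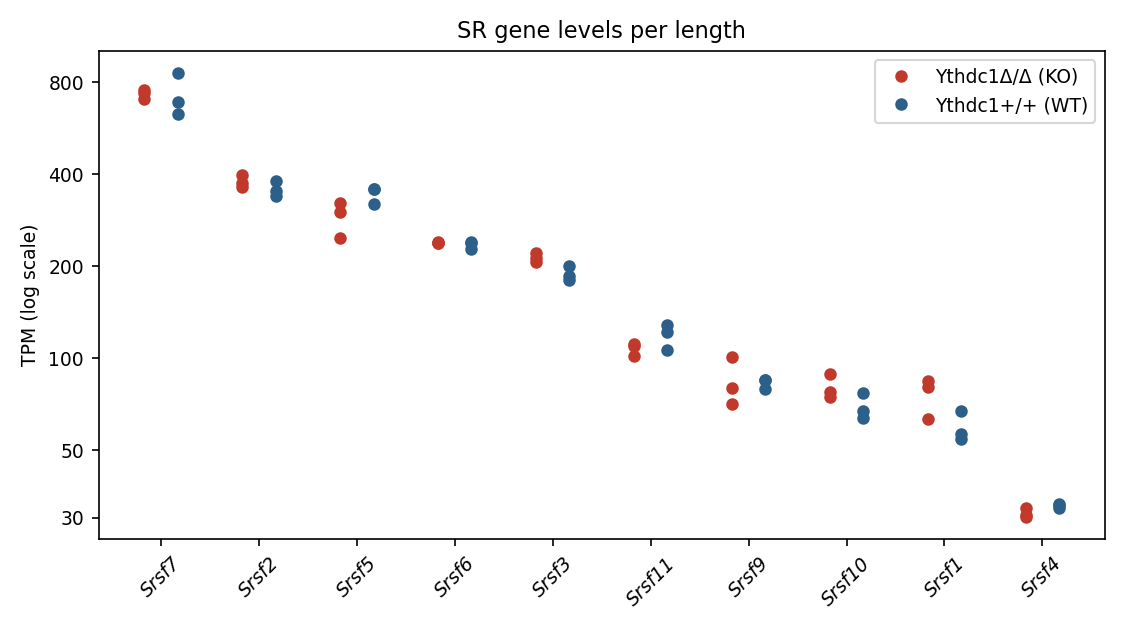
TPM of each SR gene (y axis, log scale) in the 3 *Ythdc1*Δ/Δ samples (red, left) and the 3 *Ythdc1*+/+ samples (blue, right), with genes on the x axis in falling order of their mean. *Srsf7* has 704 to 754 TPM in *Ythdc1*Δ/Δ and 631 to 859 TPM in *Ythdc1*+/+. *Srsf4* has 30.25 to 32.28 TPM in *Ythdc1*Δ/Δ and 32.39 to 33.23 TPM in *Ythdc1*+/+.

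Between the genotypes, none of the 10 genes passed an adjusted p of 0.05 (edgeR's quasi-likelihood test, Benjamini-Hochberg adjustment over 18234 genes), as did 0.137% of all genes tested, 25 of them. At an unadjusted p under 0.05, 1 gene was higher in *Ythdc1*Δ/Δ (*Srsf1*), against 4.28% of all genes tested, and 0 were lower, against 5.2%. DESeq2 also called 0 of the 10. The log2 fold change, *Ythdc1*Δ/Δ minus *Ythdc1*+/+, was above 0 for 7 genes and below 0 for 3, with a median of 0.07 and a range from -0.22 to 0.41, beside a median of -0.01 over all genes tested. The median of the 10 genes was 0.0252 without KO176, 0.0254 without WT207, 0.158 without KO209, 0.152 without WT178, and 0.111 with KO176 and KO177 against WT178 and WT180 alone. With total counts in place of TMM scaling it was 0.0153, beside -0.05 over all genes tested. The median size of the log2 fold change without its sign was 0.11 for the 10 genes and 0.17 for all genes tested. Every 95% interval lay within a 2-fold change in either direction. In 2 genes, *Srsf1* and *Srsf3*, every *Ythdc1*Δ/Δ sample was above every *Ythdc1*+/+ sample, which held for 7.75% of all genes tested. In 0 genes was every *Ythdc1*Δ/Δ sample below every *Ythdc1*+/+ sample, against 8.59%. With 10 genes, a count of 2 stands on few genes, and it was not tested against that background. These counts are for TMM-scaled CPM. In TPM every *Ythdc1*Δ/Δ sample of *Srsf4* (30.25 to 32.28) was below every *Ythdc1*+/+ sample (32.39 to 33.23). The groups of *Srsf1* overlapped in TPM, at 63.3 in KO177 and 67.3 in WT207.

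**Figure D2:**
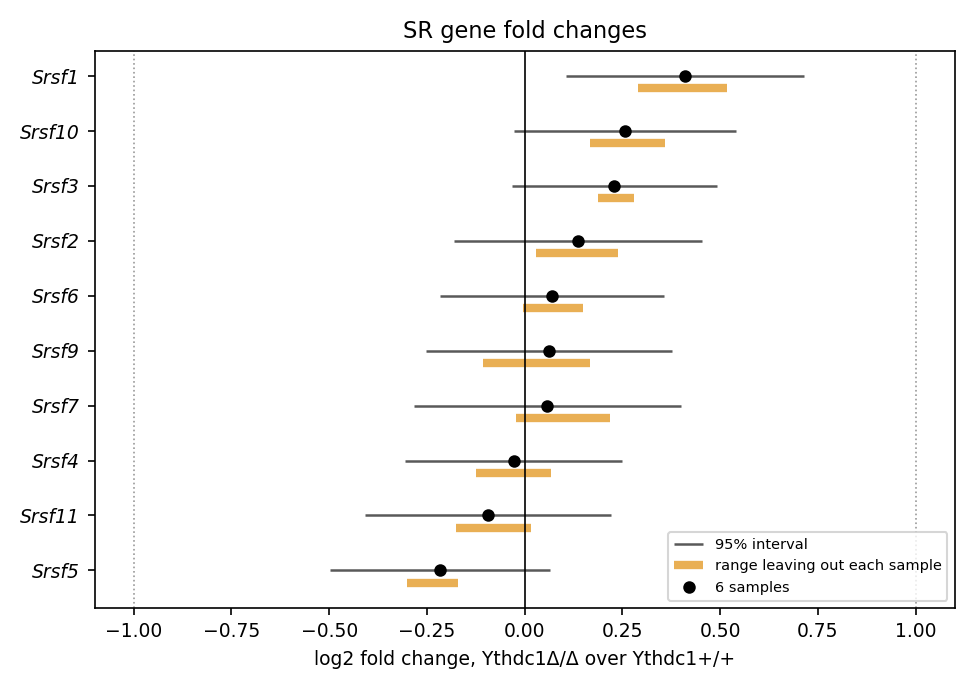
Log2 fold change of each SR gene, *Ythdc1*Δ/Δ over *Ythdc1*+/+ (x axis), from the 6 samples (black point) with its 95% interval (gray line) and the range when each sample was left out in turn (orange bar). Dotted lines mark 2-fold changes. The interval of *Srsf1*, 0.10 to 0.71, is the only one of the 10 that does not hold 0.

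*Srsf1* encodes a shuttling SR protein that acts on the choice of 5′ splice sites and is an oncogene in several human tumors. It (ENSMUSG00000018379.17) lies on chromosome 11 from 88047373 to 88053755 on the plus strand. It was at 194, 139.5 and 165 CPM in the *Ythdc1*Δ/Δ samples KO176, KO177 and KO209, against 122, 118 and 135 CPM in the *Ythdc1*+/+ samples WT178, WT180 and WT207. All *Ythdc1*Δ/Δ values lay above the *Ythdc1*+/+ values, by a narrow gap between KO177 and WT207. Single libraries did overlap, since those of KO177, at 145 and 134.5 CPM, lay below 1 library of WT207, at 159 CPM. The means were 166 ± 27.2 CPM in *Ythdc1*Δ/Δ against 125 ± 8.60 CPM in *Ythdc1*+/+, a fitted fold of 1.33 with a 95% interval of 1.075 to 1.64. The log2 fold change was 0.41 (standard error 0.14, unadjusted p = 0.0135, adjusted p = 0.369). Without KO176, the sample with the highest granulocyte sum, it was 0.29 with an adjusted p of 0.754, and with KO176 and KO177 against WT178 and WT180 alone it was 0.47. With total counts in place of TMM scaling the groups overlapped, at 175, 136 and 177.3 CPM in *Ythdc1*Δ/Δ against 121, 118.5 and 142 CPM in *Ythdc1*+/+.

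*Srsf3*, which encodes the smallest of the SR proteins here, an adaptor for mRNA export and a partner of YTHDC1, had TMM-scaled values close to each other in *Ythdc1*+/+. It (ENSMUSG00000071172.13) lies on chromosome 17 from 29032628 to 29043373 on the plus strand. The levels were 685, 649.9 and 599 CPM in KO176, KO177 and KO209, against 554, 543 and 554 CPM in WT178, WT180 and WT207. No *Ythdc1*Δ/Δ value met the *Ythdc1*+/+ range, nor did single libraries, at 605 to 690.5 CPM in *Ythdc1*Δ/Δ against 537 to 566 CPM in *Ythdc1*+/+. The means were 645 ± 43.6 CPM in *Ythdc1*Δ/Δ against 550.1 ± 6.34 CPM in *Ythdc1*+/+, a fitted fold of 1.17 with an interval of 0.977 to 1.405 (log2 0.23, standard error 0.12, adjusted p = 0.579). With total counts alone the groups still did not meet, at 617, 635 and 645 CPM in *Ythdc1*Δ/Δ against 548, 544 and 585 CPM in *Ythdc1*+/+. An exact permutation test of 3 samples against 3 can go no lower than a two-sided p of 0.1, which *Srsf1* and *Srsf3* each gave. With the 12 libraries taken as separate samples, *Srsf1* (adjusted p = 0.0401) and *Srsf3* (adjusted p = 0.0442) passed the threshold, as did 2.23% of the 15551 genes tested in that fit in this direction, but libraries of 1 number are not independent. In a limma fit that kept the libraries of 1 number together as a random block, the adjusted p was 0.203 for *Srsf1* and 0.211 for *Srsf3*.

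*Srsf10* and *Srsf5* had the next largest log2 fold changes in size, with opposite signs. *Srsf10* encodes an atypical SR protein that represses splicing when it loses its phosphates, as in heat shock or mitosis. It (ENSMUSG00000028676.17) lies on chromosome 4 from 135855747 to 135869908 on the plus strand. It was at 228.5, 202 and 212.5 CPM in KO176, KO177 and KO209, against 203, 178.4 and 156 CPM in WT178, WT180 and WT207. Only KO177 and WT178 overlapped, and the log2 fold change was 0.26 (interval -0.03 to 0.54, adjusted p = 0.568). It was 0.17 without WT207 and 0.17 with KO176 and KO177 against WT178 and WT180 alone. *Srsf5* (ENSMUSG00000021134.17), on chromosome 12 from 80945504 to 80950507 on the plus strand, encodes an SR protein with a pair of RNA recognition motifs. It was at 416, 463 and 439 CPM in *Ythdc1*Δ/Δ, against 539.6, 542 and 449 CPM in *Ythdc1*+/+. WT207 lay among the *Ythdc1*Δ/Δ samples and the other *Ythdc1*+/+ samples lay above them. The log2 fold change was -0.22 (interval -0.50 to 0.07, adjusted p = 0.627), and -0.30 with KO176 and KO177 against WT178 and WT180 alone. With total counts in place of TMM scaling the groups just failed to meet, at 375, 452 and 473 CPM in *Ythdc1*Δ/Δ against 534, 543 and 474 CPM in *Ythdc1*+/+.

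**Figure D3:**
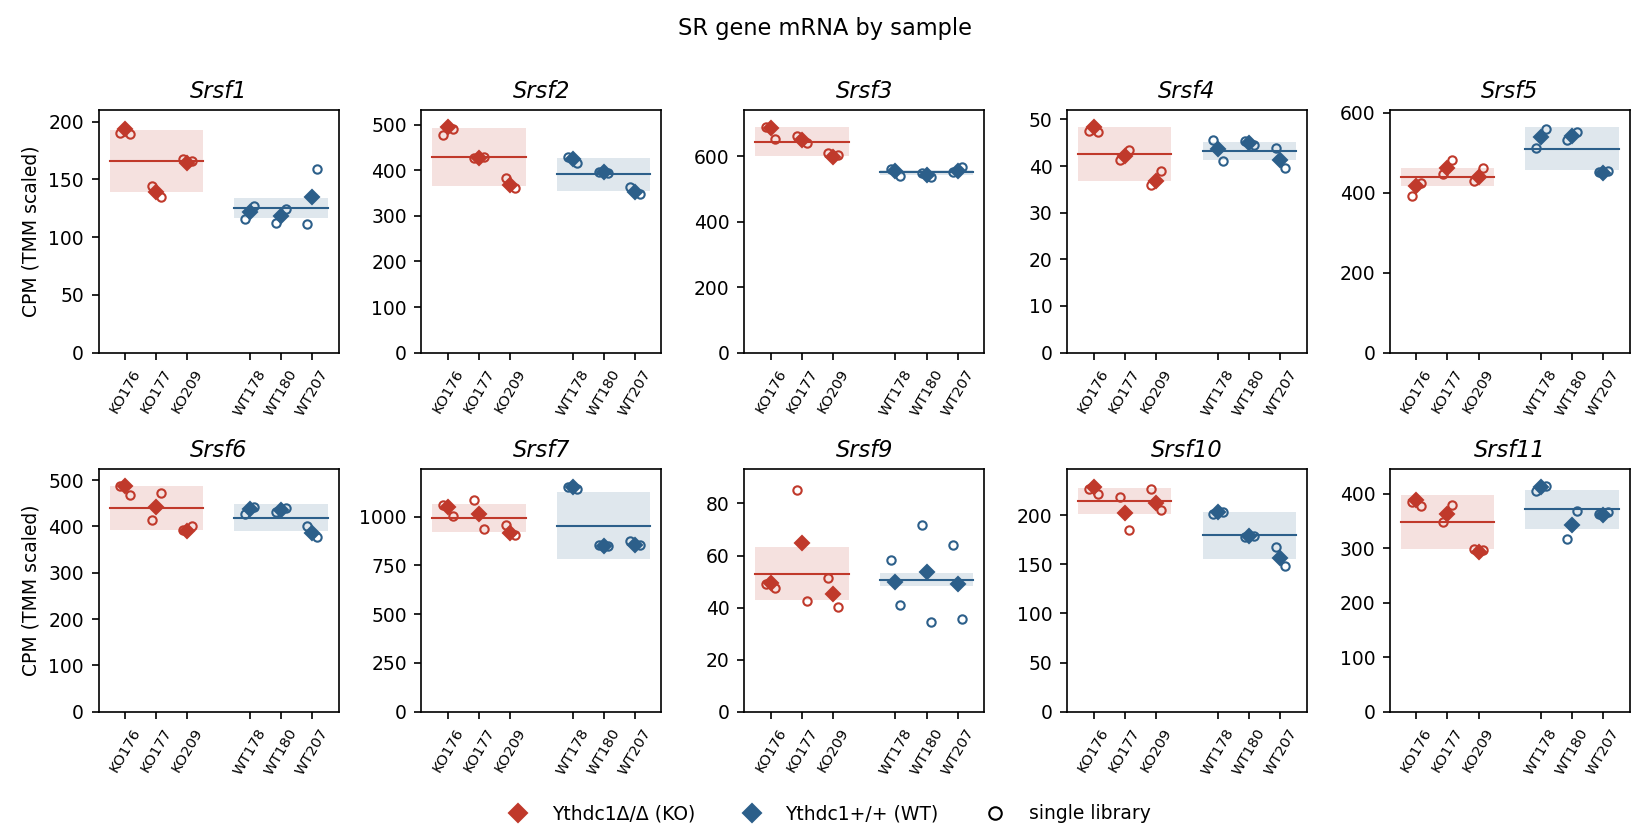
CPM of each SR gene (y axes from 0) by sample, *Ythdc1*Δ/Δ in red on the left and *Ythdc1*+/+ in blue on the right. Diamonds are the summed samples, open circles their single libraries scaled on their own, and lines with bands the mean and SD of 3 samples. *Srsf3* has all *Ythdc1*Δ/Δ samples at 599 to 685 CPM and all *Ythdc1*+/+ samples at 543 to 554 CPM.

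In TMM-scaled CPM the groups of each of the other 6 genes overlapped, and each log2 fold change was smaller in size than its standard error. In TPM the groups of *Srsf4* did not overlap. *Srsf2* (ENSMUSG00000034120.18, chromosome 11, 116849901 to 116853094, minus strand) was at 494.5, 427 and 367 CPM in *Ythdc1*Δ/Δ against 425, 396 and 352 CPM in *Ythdc1*+/+, a log2 fold change of 0.14 (interval -0.18 to 0.45) that was 0.03 without KO176, 0.07 without WT207, 0.24 without KO209 and 0.08 with total counts. *Srsf6* (ENSMUSG00000016921.14, chromosome 2, 162931528 to 162937121, plus strand), a relative of *Srsf4* and *Srsf5* in its domains, was at 487, 442 and 391 CPM in *Ythdc1*Δ/Δ against 437, 435 and 385 CPM in *Ythdc1*+/+ (log2 0.07, interval -0.22 to 0.36). The groups overlapped in these genes. *Srsf7* (ENSMUSG00000024097.11, chromosome 17, 80200080 to 80207307, minus strand) was at 1051, 1013 and 915 CPM in *Ythdc1*Δ/Δ against 1153, 851 and 857 CPM in *Ythdc1*+/+, with WT178 above every other sample (log2 0.06, interval -0.28 to 0.40). *Srsf11* (ENSMUSG00000055436.18, chromosome 3, 158010473 to 158036639, minus strand), whose protein interacts with U2AF, was at 389, 363 and 293 CPM in *Ythdc1*Δ/Δ against 412, 343 and 362 CPM in *Ythdc1*+/+ (log2 -0.09, interval -0.41 to 0.22). Its lowest sample was KO209.

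*Srsf9* (ENSMUSG00000029538.14, chromosome 5, 115327177 to 115333080, plus strand), whose protein has a short arginine and serine domain, was at 49.3, 64.6 and 45.1 CPM in *Ythdc1*Δ/Δ against 49.8, 53.5 and 49.0 CPM in *Ythdc1*+/+ (log2 0.06, interval -0.25 to 0.38). *Srsf4* (ENSMUSG00000028911.16, chromosome 4, 131873617 to 131901706, plus strand), whose protein has a long arginine and serine domain, was at 48.4, 42.2 and 36.8 CPM in *Ythdc1*Δ/Δ against 43.6, 45 and 41.2 CPM in *Ythdc1*+/+ (log2 -0.03, interval -0.30 to 0.25). KO177 alone held the mean of *Srsf9* above that of *Ythdc1*+/+. The sign turned with 1 sample left out for *Srsf4* (0.07 without KO209), *Srsf6* (-0.0032 without KO176), *Srsf7* (-0.02 without WT180 and -0.01 without WT207), *Srsf9* (-0.11 without KO177) and *Srsf11* (0.02 without KO209). Exons of other genes covered 43.0% of the exon length of *Srsf4* (Gm12992) and 25.3% of that of *Srsf2* (*Mettl23* and *Mfsd11*), where reads could not be given to a gene without strand. The overlap was 1.72% for *Srsf1* (Gm11508) and 0 for the other 7 genes.

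Within *Ythdc1*Δ/Δ, 6 genes (*Srsf2*, *Srsf3*, *Srsf4*, *Srsf6*, *Srsf7* and *Srsf11*) were highest in KO176, lower in KO177 and lowest in KO209. The TMM factors, by which the counts of a sample are divided, went the other way with 0.901 in KO176, 0.978 in KO177 and 1.08 in KO209, against 0.990 to 1.058 in *Ythdc1*+/+. With total counts in place of TMM scaling, the falling order held for *Srsf2*, *Srsf4* and *Srsf6* alone. In KO176, KO177 and KO209, *Srsf3* then rose, at 617, 635 and 645 CPM. *Srsf7* was at 947, 989 and 985 CPM and *Srsf11* at 350.5, 355 and 316 CPM. Ratios between SR genes of 1 sample do not depend on the TMM factor. The ratio of *Srsf3* to *Srsf7* counts, whose proteins are close relatives, was 0.652, 0.642 and 0.655 in *Ythdc1*Δ/Δ and 0.480, 0.637 and 0.646 in *Ythdc1*+/+, so WT178 alone stood apart. The ratio of *Srsf4* to *Srsf6* counts was 0.0994, 0.0956 and 0.0943 in *Ythdc1*Δ/Δ and 0.0998, 0.103 and 0.107 in *Ythdc1*+/+, with the *Ythdc1*Δ/Δ samples just below. For the pair *Srsf3* and *Srsf5*, chosen after their values were seen, the ratio was 1.65, 1.40 and 1.365 in *Ythdc1*Δ/Δ and 1.03, 1.001 and 1.23 in *Ythdc1*+/+. The groups did not meet. Nor did they for the ratios of *Srsf10* to *Srsf5* and of *Srsf1* to *Srsf5*, while the ratio of *Srsf1* to *Srsf9* overlapped. The ratios to *Srsf5* set the genes with the highest log2 fold changes (*Srsf1* 0.41, *Srsf10* 0.26, *Srsf3* 0.23) over the gene with the lowest (-0.22). A gap between the groups is thus largely built into them, and they add no separate result. No test was run on the ratios, and how often other gene pairs stand apart was not computed.

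The 2 libraries of a sample number were close for most SR genes and far apart for *Srsf9*. In *Srsf9* the library ending in 1 was above the library ending in 2 for all 6 numbers. The folds were 1.03, 1.998 and 1.28 in KO176, KO177 and KO209, against 1.42, 2.09 and 1.79 in WT178, WT180 and WT207. The highest library, 85.3 CPM, and a low one, 42.7 CPM, both belonged to KO177. The median fold between such libraries was 1.60 for *Srsf9*, above 99.2% of the genes at 10 CPM or more, whose own median was 1.08. For the other 9 SR genes it was 1.02 to 1.09. *Srsf7* was also higher in the library ending in 1 for all 6 numbers and *Srsf5* lower for all 6, with median folds of 1.04 and 1.08. The labels do not say what the ending marks.

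**Figure D4:**
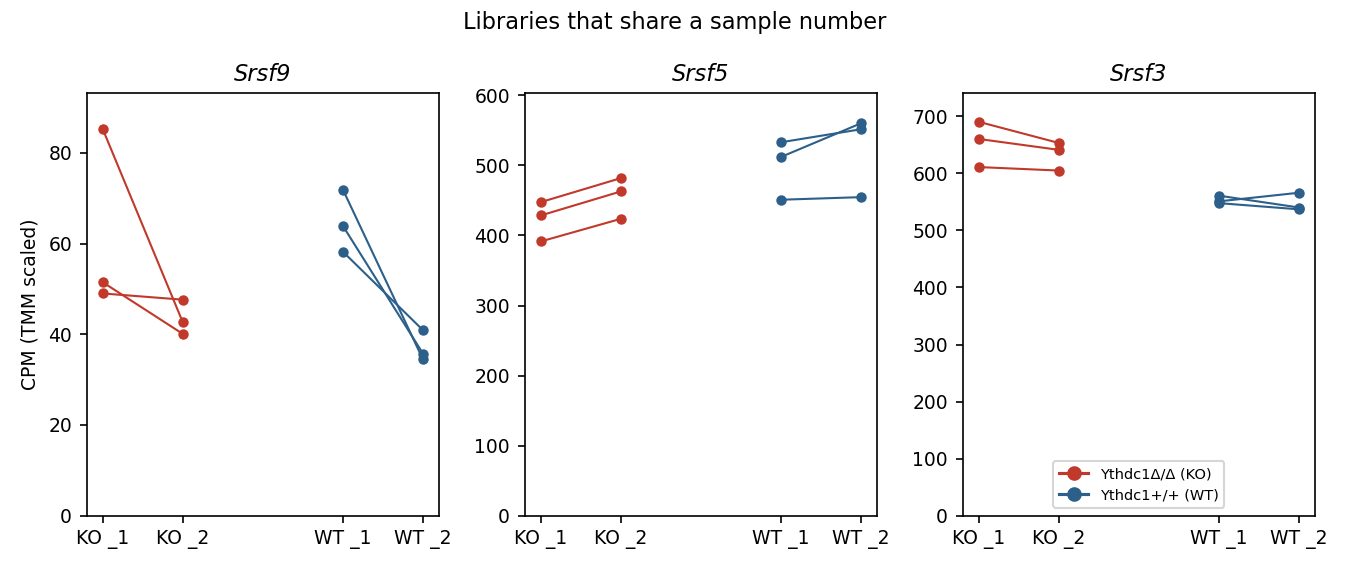
CPM (y axes from 0) of *Srsf9*, *Srsf5* and *Srsf3* in the libraries ending in 1 and in 2, joined by a line where they share a sample number, *Ythdc1*Δ/Δ in red on the left and *Ythdc1*+/+ in blue on the right. All 6 lines fall for *Srsf9* and all 6 climb for *Srsf5*.

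The SR genes did not move as 1 block. Over the 6 samples, 38 of their 45 pairs had a positive Pearson r of log2 CPM and 7 a negative one, with a median of 0.27. The highest was 0.97 for *Srsf2* and *Srsf6* and the lowest -0.89 for *Srsf1* and *Srsf5*. These are descriptions over 6 samples that share their scaling factors. Their mean profile, after centring each gene, was most like that of *Foxred1* (r = 0.996), *Srm* (0.996), *Arpc1b* (0.996), *Oma1* (0.996) and *Ercc2* (0.994) among 9121 genes at 10 CPM or more, and 702 genes had an r over 0.9. The profile was 0.15 in KO176, -0.08 in KO209 and -0.12 in WT207, where the TMM factors were 0.901, 1.08 and 1.058. All genes share those factors, and their part in this likeness was not tested. None of the 5 named genes passed the test between genotypes. *Srm*, the spermidine synthase gene, was at 706, 574 and 438 CPM in *Ythdc1*Δ/Δ against 559.9, 476 and 421 CPM in *Ythdc1*+/+ (adjusted p = 0.714).

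Genes around the SR proteins in the splicing pathway were described from 5 lists, in which no gene passed the adjusted threshold. Of 25 tested SR-related coactivators (26 listed, *Srrm4* not tested), an unadjusted p under 0.05 was reached by 0 in the higher and 1 in the lower direction (4.28% and 5.2% over all genes tested), and the median log2 fold change was 0.03. *Tra2a*, which encodes an SR-like activator of exon inclusion, was the lower one, at 70.2 ± 3.28 CPM in *Ythdc1*Δ/Δ against 84.3 ± 7.97 CPM in *Ythdc1*+/+ (log2 -0.26, adjusted p = 0.493). *Son*, the gene of a scaffold protein of nuclear speckles, was at 364 ± 17.2 CPM in *Ythdc1*Δ/Δ against 431 ± 5.22 CPM in *Ythdc1*+/+ (log2 -0.24, adjusted p = 0.531). *Pnisr* had a log2 fold change of -0.29 and *Scaf4*, which encodes a protein that binds RNA polymerase and curbs early polyadenylation, of 0.26. Every *Ythdc1*Δ/Δ sample was above every *Ythdc1*+/+ sample in 2 of the 25 genes and below in 5 of them, *Tra2a*, *Son* and *Pnisr* included, beside 7.75% above and 8.59% below over all genes tested.

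Of 22 kinases, phosphatases and importins of SR proteins, 3 in the higher and 2 in the lower direction reached an unadjusted p under 0.05, beside 4.28% and 5.2% of all genes tested, with a median of -0.02. *Ppp1cb*, a catalytic subunit gene of protein phosphatase 1, was at 93.2, 85.3 and 94.5 CPM in *Ythdc1*Δ/Δ against 70.1, 72.8 and 68.4 CPM in *Ythdc1*+/+ (log2 0.37, adjusted p = 0.286). *Tnpo1*, an importin gene, was at 65.25 ± 10.3 CPM in *Ythdc1*Δ/Δ against 52.0 ± 2.84 CPM in *Ythdc1*+/+ (log2 0.33, adjusted p = 0.460). *Srpk3*, an SR protein kinase gene best known from muscle, was low throughout with 0.387 ± 0.0206 CPM in *Ythdc1*Δ/Δ against 0.180 ± 0.0803 CPM in *Ythdc1*+/+ (log2 1.07, adjusted p = 0.429). *Dyrk1b*, a kinase gene, was at 8.45 ± 1.47 CPM in *Ythdc1*Δ/Δ against 12.8 ± 2.76 CPM in *Ythdc1*+/+ (log2 -0.60, adjusted p = 0.367). Over the list, every *Ythdc1*Δ/Δ sample was above every *Ythdc1*+/+ sample in 5 of 22 genes and below in 2, these 4 included, beside 7.75% and 8.59% of all genes tested.

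Genes of the U1 snRNP, U2AF and SF3 complexes, which SR proteins recruit or meet at the splice sites, numbered 28. Of these, 0 passed an unadjusted p of 0.05 in either direction, beside 4.28% higher and 5.2% lower over all genes tested. Their median was 0.05. Every *Ythdc1*Δ/Δ sample was above every *Ythdc1*+/+ sample in 2 of them and below in 1, beside 7.75% and 8.59% of all genes tested. The smallest p-values belonged to *Sf3b4* (log2 0.26), *Snrpd3* (0.39), *Sf3b3* (0.22) and *Zrsr1* (-0.34). Of 17 genes of NMD and the exon junction complex, 14 had a log2 fold change above 0, beside 8918 of all 18234 genes tested, with a median of 0.07. Among them, the log2 fold change was 0.35 for *Nbas*, 0.25 for *Eif4a3*, the core helicase gene of the exon junction complex, and 0.19 for *Smg5*, with adjusted p-values of 0.553, 0.568 and 0.587. Of the 4 other named partners of YTHDC1, *Khdrbs1*, *Safb*, *Nxf1* and *Hp1bp3*, none passed an unadjusted p of 0.05. The shares over all genes tested were 4.28% in the higher and 5.2% in the lower direction. *Nxf1*, the export receptor gene, was at 210.1 ± 20.0 CPM in *Ythdc1*Δ/Δ against 206.6 ± 30.7 CPM in *Ythdc1*+/+ (log2 0.02), *Hp1bp3* had a log2 fold change of 0.02, *Khdrbs1* of 0.14 and *Safb* of -0.09.

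**Figure D5:**
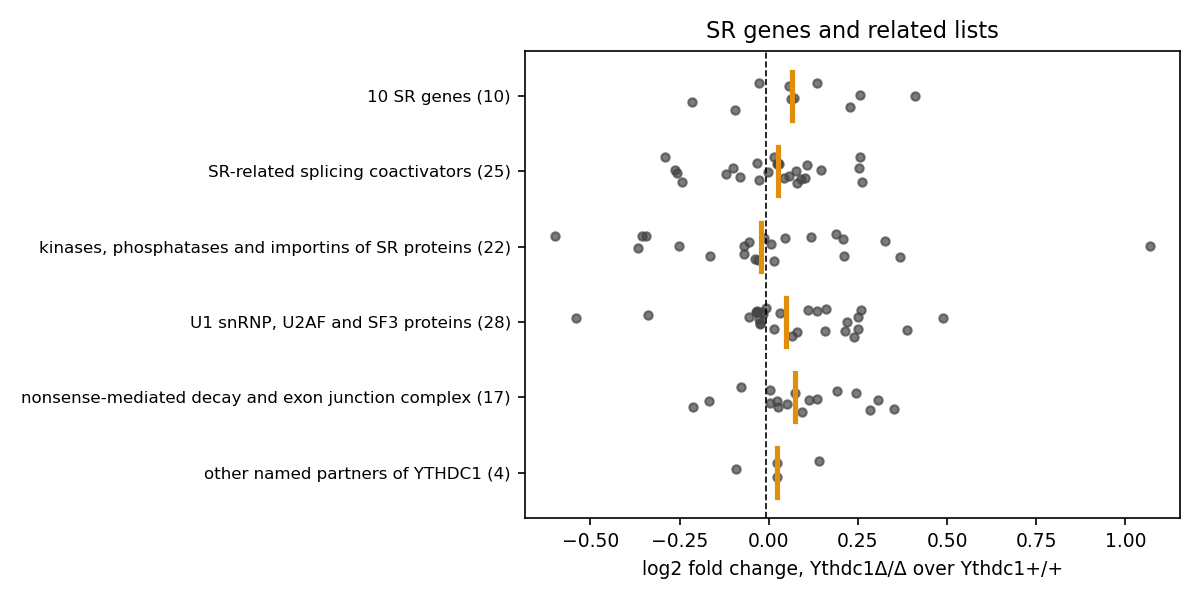
Log2 fold change, *Ythdc1*Δ/Δ over *Ythdc1*+/+ (x axis), of each gene (points, spread at random up and down) in the 10 SR genes and 5 related lists, with the number tested in brackets. Orange bars are list medians, 0.07 for the SR genes and -0.02 to 0.07 for the others, and the dashed line is the median of all genes tested, -0.01.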

How the data were processed

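The deposited values are raw whole-number counts of read pairs, which the authors made with featureCounts 2.0.1 from the exons of GENCODE vM23 on mm10 (per the file header and the submitters' processing notes). Strand was not used, and pairs that touched exons of several genes or mapped to several places were not counted for them. The study's methods name Hisat2 for alignment and FPKM values, which are not used here. The deposited table also gives each gene's exon length as another column, from which TPM was computed here. The 2 libraries of each sample number were summed. Genes were tested with edgeR 4.0.16 in R 4.3.3 (quasi-likelihood fit, robust) after filterByExpr (minimum count 10, minimum total 15) and TMM scaling, with p-values adjusted over 18234 genes. The methods name edgeR without a design. The steps were tested on simulated data. The changes put in were all larger in size than those fitted for the SR genes, so how often smaller ones are called was not tested. Alternatives used limma 3.58.1 (voomLmFit) and DESeq2 1.42.0, other scalings and filters, and each sample left out in turn. Beside the 10 genes and *Ythdc1*, up to 4 genes per list with the smallest p, and the 5 genes with the highest r to the mean profile, were named, except 1 that is not reported here. The genes and lists were chosen with earlier results of these data known. Transcripts and sequences come from GENCODE vM21 and its genome, GRCm38. Python 3.11.15 with matplotlib 3.10.9 drew the figures.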

Additional observations from a re-analysis of the deposited data

How the results depend on the processing

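No SR gene was called in the 6 summed samples or under 16 of 18 alternatives, and 2 were called with the 12 libraries as separate samples and 1 with the replicate block, the digit at the end of a library's name (*Srsf1*, log2 0.41, adjusted p = 0.0421, with *Srsf3* at 0.0556). The digits are not known to pair libraries. Of 180 alternative log2 fold changes, 170 kept their sign and their side of the threshold, 3 passed it (*Srsf1* in both of these fits, *Srsf3* at 0.23 with separate libraries) and 7 turned sign. With KO176 and KO177 against WT178 and WT180 alone *Srsf4* was at 0.0262. Single samples turned *Srsf4* (0.0667 without KO209), *Srsf6* (without KO176), *Srsf7* (without WT180 and without WT207), *Srsf9* (without KO177) and *Srsf11* (0.0169 without KO209). With each sample left out the log2 fold change ran from -0.125 to 0.0667 for *Srsf4*, -0.0032 to 0.15 for *Srsf6*, -0.0223 to 0.22 for *Srsf7*, -0.11 to 0.17 for *Srsf9* and -0.18 to 0.0169 for *Srsf11*. The kinase, phosphatase and importin list had 1 call with separate libraries and 1 with the replicate block, and the NMD list had 1 with that block. Over the whole table, 25 genes were called, against 751 with separate libraries, 717 with the replicate block, 131 with a random block for the sample number, 84 with a term for the range of numbers, 211 in DESeq2, 73 without a filter, 3 with at least 1 CPM in 3 samples, 16 with upper quartile scaling, 15 with total counts, 15 with edgeR's legacy option, and 1 (without WT178) to 81 (without KO209) with a sample left out. These counts stand on different numbers of genes. The fits to 12 libraries, with any of the blocks or none, tested 15551 genes, and the fit with at least 1 CPM in 3 samples tested 13586. DESeq2 and the fit without a filter took in 45534, the fits with a sample left out 18735 to 19138, and the others named 18234. The fits with separate libraries and with the replicate block treat the 12 libraries as independent, and the cause of the other differences was not tested. *Srsf7* held 32.7% of the summed TPM over all samples, 26.4% without length and 26.1% with the length of protein coding transcripts, an alternative added after seeing the data. Each SR gene had at least 1816 counts in every summed sample.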
